A study of Mus musculus with 8 samples.

Results

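Chromosome 6 carried 6228 of the 90798 N6-methyladenine (6mA) peaks in 8 mouse peak lists. Its peaks were taken as the peaks whose deposited position lies on that chromosome, counted once each. The chromosome was singled out because its peak density in folate-free embryonic stem cells had already been seen to be high, so that density is described here and not tested. Of the members, 3215 came from Sv/129 mouse embryonic stem cells in folate-free medium (FA0) and 1236 from the same line with 4 mg/L folate added (FA4). Both media held fetal bovine serum, and each cell condition gave 1 immunoprecipitation, 1 input and 1 list. The other members came from embryonic brain. In the NTD group, whose embryos had neural tube defects, the dams ate a low-folate diet and were injected at gestational day 7.5 with 1.5 mg/kg methotrexate, which blocks folate use. Its 3 lists held 295, 327 and 424 peaks. The CON group, normal embryos labelled normal saline, had 143, 384 and 204. Embryos were examined at embryonic days 9.5 to 10.5, and the 3 immunoprecipitations of a brain group share 1 input. Nothing in the labels ties each of them to its own embryo, and the p-values below measure only their spread, which may be technical.

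6mA is adenine with a methyl group on its N6 position. It is a common mark in bacterial DNA, where the adenine of GATC is a well known target, and its presence and level in mammalian DNA are debated because antibody pull-down can also recover unmodified DNA. A peak here is a stretch of DNA that gave more tags after pull-down with a 6mA antibody than its background, and mouse chromosome 6 holds long genes of neurons and clusters of short receptor genes, both of which are described below.

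A small number of peaks touched a transcription start. Windows from 250 bases before to 50 after a start, taken from RefSeq on GRCm38.p6 (the assembly of mm10), were hit by 16 of the 3215 FA0 peaks, 5 of the 1236 FA4 peaks and 0 to 2 peaks of each brain list. That is 0.498% of the FA0 and 0.405% of the FA4 peaks. The windows cover 0.355% of the chromosome's bases, a share of another kind. A peak has width and can touch a window while most of its bases lie outside it. Neither an excess nor a shortage of hits can thus be read from these shares. The windows below are those with the highest fold among the hits that share at least 100 bases with a peak, 2 for FA0, 1 for FA4 and 1 for the brain lists, and they are shown because they are the promoters under the peaks. Bases inside the peak are in capitals and each sequence runs 5′ to 3′ on the gene's strand.
V1ra8 (FA0, chr6:90202567-90202866, plus strand): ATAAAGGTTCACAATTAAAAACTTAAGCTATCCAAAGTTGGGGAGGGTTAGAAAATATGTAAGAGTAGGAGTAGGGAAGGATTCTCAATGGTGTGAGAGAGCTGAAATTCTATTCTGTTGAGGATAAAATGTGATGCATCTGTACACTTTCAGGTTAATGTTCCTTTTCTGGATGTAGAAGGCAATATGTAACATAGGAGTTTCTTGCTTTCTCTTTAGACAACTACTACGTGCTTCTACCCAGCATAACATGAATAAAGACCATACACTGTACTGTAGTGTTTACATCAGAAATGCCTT
Tsga13 (FA0, chr6:30915524-30915823, minus strand): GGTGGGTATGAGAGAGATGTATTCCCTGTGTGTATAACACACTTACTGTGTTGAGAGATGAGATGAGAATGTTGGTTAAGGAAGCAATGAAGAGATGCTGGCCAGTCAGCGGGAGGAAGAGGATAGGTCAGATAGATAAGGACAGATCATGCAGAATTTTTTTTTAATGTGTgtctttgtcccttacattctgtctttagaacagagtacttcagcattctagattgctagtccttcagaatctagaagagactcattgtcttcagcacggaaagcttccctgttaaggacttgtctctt
Tas2r105 (FA4, chr6:131687414-131687713, minus strand): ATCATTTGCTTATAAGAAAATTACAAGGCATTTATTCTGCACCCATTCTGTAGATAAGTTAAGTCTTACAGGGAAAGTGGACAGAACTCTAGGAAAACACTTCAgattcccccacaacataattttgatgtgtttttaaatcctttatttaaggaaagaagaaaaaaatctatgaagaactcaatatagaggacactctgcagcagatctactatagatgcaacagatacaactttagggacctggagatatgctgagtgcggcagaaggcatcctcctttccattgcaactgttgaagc
Vmn1r25 (NTD 3, chr6:57979253-57979552, minus strand): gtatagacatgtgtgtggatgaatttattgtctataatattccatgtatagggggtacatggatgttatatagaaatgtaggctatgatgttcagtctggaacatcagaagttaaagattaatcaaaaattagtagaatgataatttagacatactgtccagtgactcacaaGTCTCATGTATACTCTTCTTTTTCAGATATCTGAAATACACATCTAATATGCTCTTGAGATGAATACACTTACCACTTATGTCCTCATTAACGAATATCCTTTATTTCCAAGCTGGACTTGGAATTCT
V1ra8 and Vmn1r25 encode type 1 vomeronasal receptors, Tas2r105 a bitter taste receptor and Tsga13 a testis-expressed protein. The peak at V1ra8 covered all 300 bases of its window, with 10 tags, a deposited fold of 3.53 and a deposited q of 0.176. The peak at Tsga13 covered 172 bases and had the same tags, fold and q. The FA4 peak at Tas2r105 covered 104 bases with 8 tags and a q of 0.533, and the authors assigned it to Tas2r104, a neighbour in the same family. The NTD 3 peak at Vmn1r25 covered 128 bases with 10 tags and a q of 1. These receptor families hold near-identical copies, so reads may have been placed on the wrong copy, and none of the 4 peaks passed a q of 0.05. GATC, which reads the same on both strands, occurred once inside the peak at Tsga13 and in none of the shown parts of the other 3 peaks. Over the whole window of 300 bases it occurred at Tsga13 and Tas2r105, and not at V1ra8 or Vmn1r25. Whole windows of this kind held it in 46.1% of cases on chromosome 6 and in 48.0% over the genome.

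In FA0, chromosome 6 had the second highest peak density of the 19 autosomes. It held 21.9 peaks per Mb (95% Poisson interval 21.2 to 22.7, counting error only), against a median of 15.2 and a range of 13.2 to 28.5 over the other 18. The highest of those was chromosome 8, and without it the highest was 16.5. The density was 1.44 times the median of the other autosomes (interval 1.39 to 1.49), and the chromosome held 8.31% of the FA0 peaks (95% Wilson interval 8.04 to 8.59). In FA4 it held 8.43 peaks per Mb (7.97 to 8.92), 1.10 times the median of 7.70 (1.04 to 1.16), and ranked 7. With 1 list per condition this difference between FA0 and FA4 has no replicate check. The whole FA0 list held 1.92 times as many peaks as the FA4 list. On chromosome 6 the FA0 count was 2.60 times the FA4 count, on the other autosomes 0.954 to 5.20 times with a median of 2.10, and 4 chromosomes had a larger ratio.

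**Figure D1:**
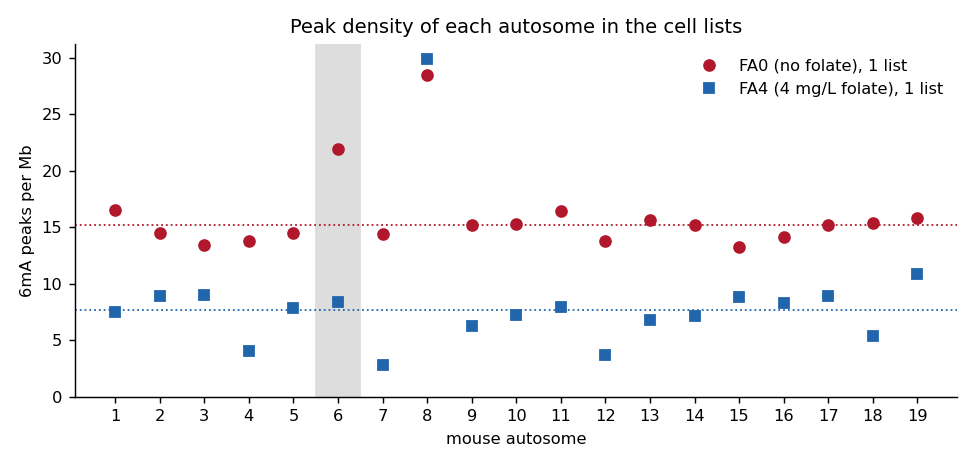
Peaks per Mb on each autosome in the FA0 list (circles) and the FA4 list (squares), with dotted lines at the median of the autosomes other than chromosome 6. Chromosome 6 (shaded) lies at 21.9 in FA0, above every autosome but chromosome 8, and at 8.43 in FA4, close to the median of 7.70.

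The brain lists showed no such density. Chromosome 6 stood at 0.878, 1.03 and 1.02 times the median of the other autosomes in NTD 1 to 3 and at 0.877, 0.964 and 0.853 times in CON 1 to 3. Both groups lay near 1 and overlapped (exact permutation test, two-sided p = 0.2, n = 3 lists per group, smallest possible p 0.1).

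A typical chromosome 6 peak was as weak as a peak elsewhere. The median peak held 8 tags in FA0 and 8 in FA4, both on chromosome 6 and on the other autosomes, and 7, 8 and 8 tags in NTD 1 to 3 and 9, 7 and 9 in CON 1 to 3. The median deposited fold was 2.85 in FA0 on chromosome 6 and 2.85 elsewhere, and 2.80 in FA4 against 2.84 elsewhere. FA0 peaks were 322 ± 104 bp wide on average (SD over peaks) and those of the other autosomes 314 bp. A deposited q of at most 0.05 was reached by 86 of the 3215 FA0 peaks, 2.67%, where 2.67% of all FA0 peaks reached it. In FA4 it was reached by 60 of 1236, 4.85%, where 4.68% of all FA4 peaks did. These shares lie near the background of each list. In NTD 1 to 3 it was reached by 0, 2 and 1 chromosome 6 peaks (1.12%, 1.16% and 0.831% of the whole lists) and in CON 1 to 3 by 2, 2 and 3 (2.36%, 1.18% and 1.85%). A fold of at least 5 was reached by 4 FA0 peaks (0.103% of the whole list) and by 0 FA4 peaks (0.228% of the whole list). It was reached by 0 chromosome 6 peaks of each brain list, where 0.0691%, 0.0356% and 0.0282% of NTD 1 to 3 and 0%, 0.0302% and 0.0251% of CON 1 to 3 reached it. The tag counts set the limit here, since a peak of 8 tags carries a large counting error.

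The background behind the peaks also differed. Each list has one background value shared by most of its peaks, and 40.5% of the FA0 peaks on chromosome 6 had a background over 1% above it, against 33.0% on the autosomes other than 6 and 8 and 51.2% on chromosome 8. Chromosomes 1 and 14 had shares of 45.0% and 48.9% at FA0 densities of 16.5 and 15.3 peaks per Mb. In FA4 the shares were 30.7%, 29.3% and 84.6%. Among FA0 peaks at the common background, the density of chromosome 6 was 1.29 times the median of the other autosomes. The part of the raised background in the density was not tested beyond that value.

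The high FA0 density ran along most of the chromosome. In 5 Mb bins, of which 28 are full and those at both ends are shorter, the density ranged from 8.60 to 32.9 peaks per Mb with a median of 22.7. The median bin of the other autosomes held 15.2. Of the 30 bins, 26 lay above that median, as did 51.6% of all autosomal bins, and 15 reached at least 1.5 times it, as did 11.2% of all. Since the chromosome was chosen for its FA0 density, these counts describe it and support nothing. At least 1.5 times the median was also reached by 21 of 26 bins on chromosome 8 and by 20 of the 446 bins on the remaining autosomes. In FA4, 22 of the 30 bins lay above the median bin (51.4% of all) and 3 reached 1.5 times it (12.5% of all), with 5.8 to 13 peaks per Mb. In the brain lists summed, 11 lay above (48.4% of all) and 1 reached 1.5 times (4.18% of all).

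**Figure D2:**
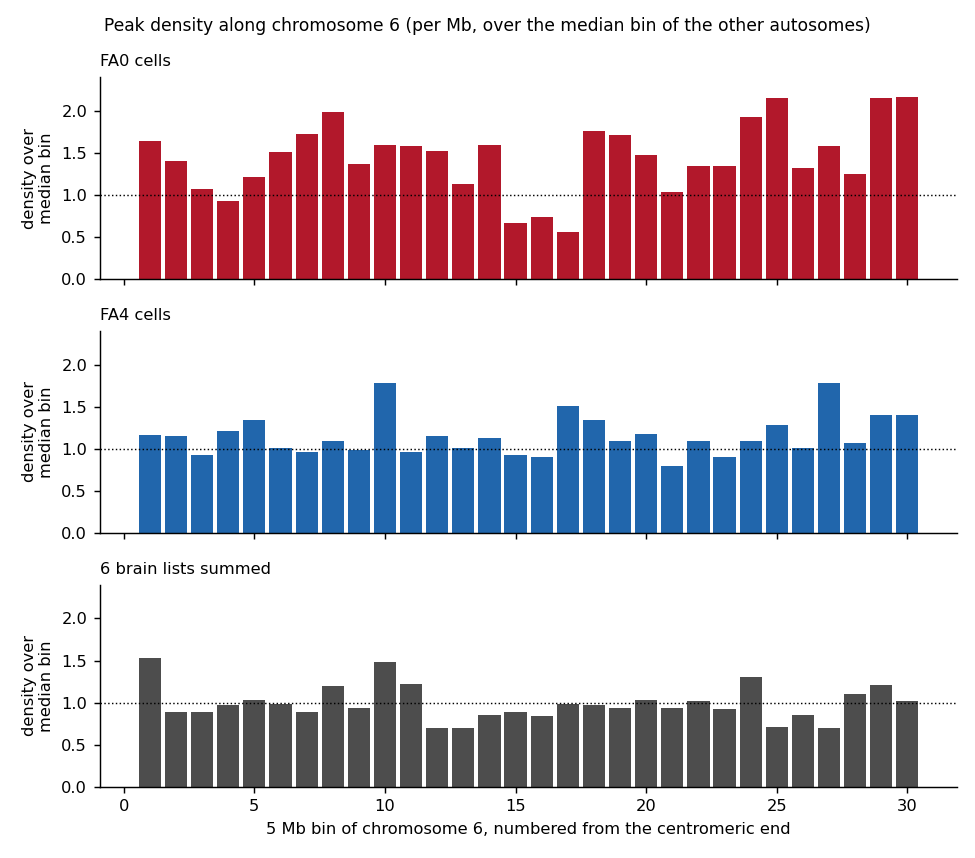
Peaks per Mb in each 5 Mb bin of chromosome 6 divided by the median bin of the other autosomes (dotted line at 1), for FA0, FA4 and the 6 brain lists summed. FA0 lies above 1 in 26 of 30 bins and falls to between 0.566 and 0.737 in bins 15 to 17, where FA4 stands at 0.904 to 1.51 and brain at 0.839 to 0.984.

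The densest FA0 bins lay in the distal part of the chromosome. The last bin, from 145 Mb on, held 151 FA0 peaks or 32.9 per Mb, and its longest genes are Itpr2, a calcium release channel of the endoplasmic reticulum, Tmtc1 and Ccdc91. The bins from 120 to 125 Mb (Mical3, Ninj2, Cecr2) and from 140 to 145 Mb (Sox5, Pde3a, Plekha5) held 164 peaks each, 32.8 per Mb. FA4 had 47, 47 and 51 peaks in these 3 bins. At 1 Mb, the FA0 counts of full windows ran from 0 to 54 with a median of 23, against 15 on the other autosomes, and 35 of 146 windows lay below 15.

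The density was not even. The FA0 count per full bin had a coefficient of variation of 0.289, against a median of 0.245 and a range of 0.169 to 0.704 on the other autosomes, 6 of which were higher. Its variance was 9.01 times its mean, against a median of 4.67 elsewhere, and 2 autosomes had a larger value. Chromosome 1 was at 20.6 and chromosome 14 at 36.5. At an equal coefficient of variation this ratio is larger where the mean count is larger, and the FA0 mean was 108 per full bin of chromosome 6. In FA4 the coefficient of variation was 0.212 (median elsewhere 0.221) and the variance 1.88 times the mean (2.04), and in brain 0.194 (0.190) and 2.25 times (2.19). FA4 and brain thus varied along chromosome 6 about as along the median autosome.

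The sparsest FA0 bins were neighbours. The bin from 70 to 75 Mb (longest genes Dnah6, Tcf7l1, Reep1) held 51 FA0 peaks or 10.2 per Mb, the bin from 75 to 80 Mb (Ctnna2, Lrrtm1, Reg3a) held 56 or 11.2 per Mb, and the bin from 80 to 85 Mb (Lrrtm4, Exoc6b, Dysf) held 43 or 8.60 per Mb. FA4 had 34, 33 and 55 peaks there, so that the last of them held fewer FA0 than FA4 peaks (0.782 times). In the other 27 bins FA0 exceeded FA4 by 1.61 to 3.78 times. Without these 3 bins, chosen after their values were seen, the FA0 coefficient of variation over the remaining 25 full bins fell to 0.218. The fourth bin under the autosomal median lay from 15 to 20 Mb with 71 FA0 peaks, 14.2 per Mb.

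The 1 Mb windows placed the edges of this trough at 71 and 83 Mb, limits drawn after the values were seen. Inside these 12 Mb, FA0 had 85 peaks, 7.08 per Mb (95% Poisson interval 5.66 to 8.76), against 23.2 per Mb in the rest of the chromosome, a ratio of 0.305. FA4 had 84 peaks there, 7 per Mb (5.58 to 8.67), against 8.56 in the rest, a ratio of 0.818. The ratio was 1.26, 0.808 and 0.794 in NTD 1 to 3 and 0.761, 0.920 and 1.09 in CON 1 to 3. FA0 and FA4 thus had nearly the same number of peaks in the trough, and the brain lists lay on both sides of their own level outside it. The window before the trough held 31 FA0 peaks and the one after it 18.

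The trough had an island. Its windows from 76 to 78 Mb held 19 and 21 FA0 peaks, above the median of 15 on other autosomes, while the other 10 windows held 0 to 8 and 45 peaks in all. In FA4 the same 2 windows held 5 and 6 and the other 10 held 4 to 12. Of these 40 FA0 peaks, 23 lay in Ctnna2 and 17 before it, all of the latter in the first of the 2 windows. Ctnna2 encodes the neuronal alpha-catenin that ties cadherin adhesion to actin (1098 kb, chr6:76881637-77979815) and had 23 FA0 peaks and 6 FA4 peaks. Lrrtm4, a synaptic leucine-rich repeat adhesion protein whose gene spans 791 kb (chr6:80018858-80810162), had 0 FA0 peaks, which allows up to 3.79 per Mb, and 7 FA4 peaks, 8.85 per Mb. In Lrrtm4, NTD 1 to 3 had 1, 2 and 3 peaks and CON 1 to 3 had 0, 1 and 0. These counts met at 1 and come from lists of unequal length.

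**Figure D3:**
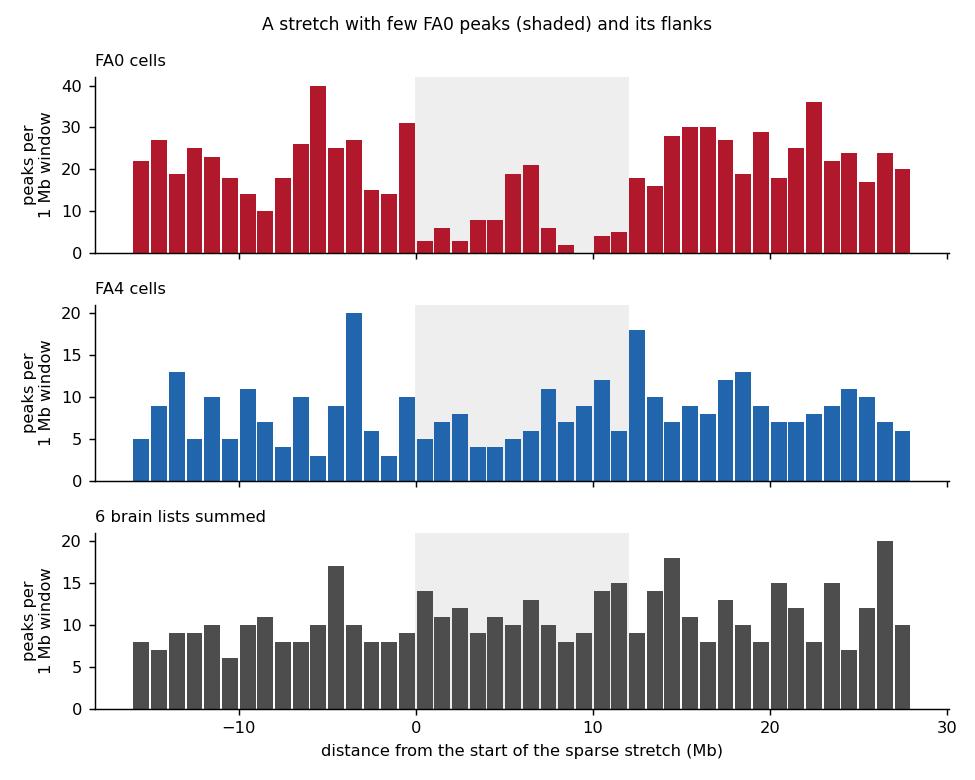
Peaks per 1 Mb window of FA0, FA4 and the 6 brain lists summed, by distance from the start of the trough (shaded, 12 Mb, chosen after its values were seen). FA0 drops to between 0 and 8 in 10 of the 12 windows and rises to 19 and 21 in the other 2, the second of which lies almost wholly in Ctnna2, while FA4 stays between 4 and 12 and brain between 8 and 15.

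FA0 peaks inside the trough were like those outside in strength, with a median of 8 tags on both sides. They were narrower on average, 295 against 322 bp. Of the FA0 peaks inside, 24.7% had a raised background, against 40.9% outside, while the FA4 shares were 31.0% and 30.7%. The trough holds 57 protein-coding genes, and gene bodies fill 30.01% of it, against 42.1% of the chromosome. The parts of the background and of gene content in the FA0 trough were not tested. Over the 28 full bins of the chromosome, the FA0 count went with the share of bases in genes at Pearson r 0.44, with the share of peaks of raised background at 0.54, with the FA4 count at 0.24 and with the brain count at 0.25. These are descriptions over neighbouring bins that share sequence, base composition and, where both measures are of FA0 peaks, a list.

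The surplus of FA0 peaks was present inside and outside genes. On chromosome 6, protein-coding gene bodies held 23.3 FA0 peaks per Mb and the rest 20.9, a ratio of 1.12, and on the other autosomes 16.6 and 15.0, a ratio of 1.11. FA4 had 8.24 inside and 8.57 outside, a ratio of 0.961, against 0.968 elsewhere. By the authors' classes, 44.7% of FA0 peaks on chromosome 6 were intergenic (47.9% on the other autosomes), 36.8% intronic (33.0%), 14.5% upstream (14.8%), 2.49% in promoters (3.26%) and 1.52% exonic (1.12%). In FA4 the shares were 51.7%, 31.1%, 12.6%, 3.64% and 0.890%. Of the 1126 protein-coding genes of the chromosome, 471 (41.8%) held an FA0 peak, where 34.9% of all autosomal genes did. An FA4 peak was held by 275 (24.4%), where 21% of all did.

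Long genes showed the surplus gene by gene. Among the 138 genes over 100 kb, 113 (81.9%) had more FA0 than FA4 peaks, 13 had fewer, and 69.2% of such genes on all autosomes had more. The median gene held 22.1 FA0 peaks per Mb, against 14.9 on the other autosomes, and 7.13 FA4 peaks per Mb, against 6.69. These gene counts come from the same FA0 list as the density by which the chromosome was chosen.

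The genes with the most FA0 peaks were all long, and several act in neurons. Cntnap2, a neurexin-related adhesion protein of axons and at 2241 kb the longest of these genes, had 41 FA0 and 24 FA4 peaks. NTD 1 to 3 had 8, 6 and 6 peaks in it and CON 1 to 3 had 3, 4 and 3. As shares of lists of unequal length these are 0.138%, 0.107% and 0.0845% in NTD and 0.107%, 0.0605% and 0.0752% in CON, and the groups overlap. Sox5, a transcription factor of neurons and cartilage, had 26 and 9. Grm8, a metabotropic glutamate receptor, had 21 and 5. Exoc4, a subunit of the exocyst that tethers vesicles, had 18 FA0 peaks and 1 FA4 peak. Dgki, a diacylglycerol kinase, had 17 and 4, Snd1, a nuclease-domain RNA-binding protein, 16 and 2, Foxp1, a forkhead transcription factor, 16 and 4, and Magi1, a junctional scaffold, 16 and 5. Cntnap2 had the highest FA4 count among them. Its FA0 density, 18.3 per Mb, was below the chromosome's 21.9, while Exoc4 stood at 24.8 in FA0 and 1.38 in FA4.

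The densest of the genes over 100 kb was Cecr2. It encodes a chromatin remodelling subunit whose loss causes exencephaly in mice, and it held 9 FA0 peaks in 105 kb (85.8 per Mb), 0 FA4 peaks and 1 brain peak, in NTD 2. St8sia1, a ganglioside sialyltransferase, had 13 FA0 and 2 FA4 peaks (77.4 FA0 peaks per Mb). Ahcyl2 had 10 and 3, Ppfibp1, a liprin, 10 and 1, and Braf, a kinase of the MAP kinase pathway, 8 and 1. Zfp638 had 7 and 5, Eefsec, the elongation factor for selenocysteine, 11 and 4, Ninj2 6 and 0, Met, the receptor of hepatocyte growth factor, 6 and 2, and Dennd5b 6 and 1. Every one of these 10 genes had more FA0 than FA4 peaks, and they were chosen by their FA0 count. At the other end, 7 of the 138 genes over 100 kb (5.07%) had 0 FA0 peaks, where 8.92% of such genes on the other autosomes had 0. They are Lrrtm4, Reep1 and Tacr1 in the trough, and Ica1, Iqsec3, Phf14 and Ptpro outside it.

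**Figure D4:**
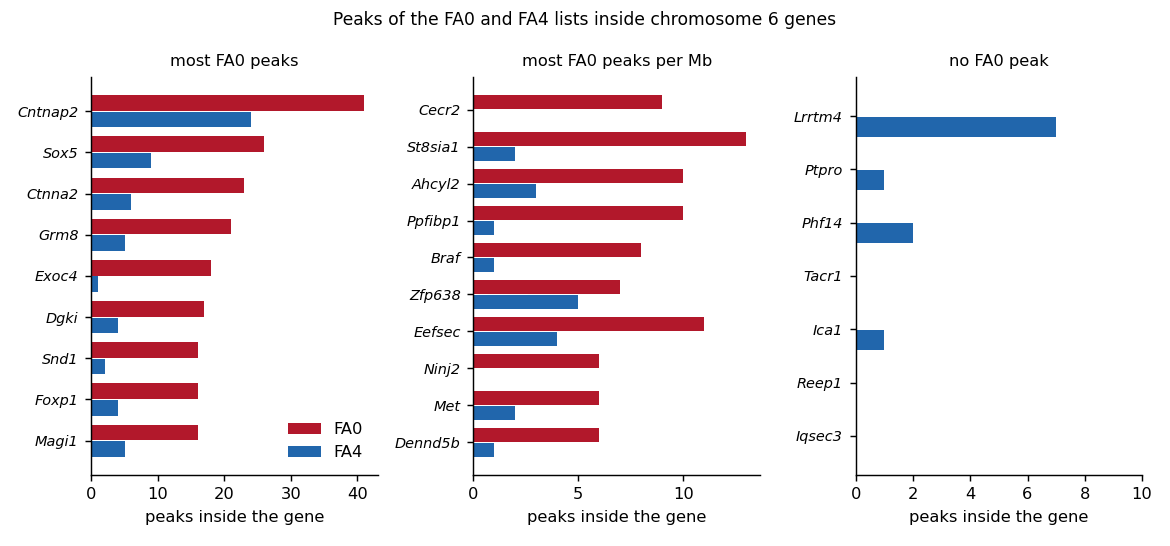
Peaks inside gene bodies in FA0 and FA4 for 9 of the 10 chromosome 6 genes with the most FA0 peaks, the 10 with the most per Mb among those over 100 kb, and the 7 over 100 kb with 0 FA0 peaks. Cntnap2 leads with 41 FA0 and 24 FA4 peaks, and Lrrtm4 has 0 FA0 and 7 FA4 peaks.

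The counts of gene groups are read beside the share of all genes with a peak. On chromosome 6, 41.8% of protein-coding genes held an FA0 peak, 24.4% an FA4 peak and 29.6% a brain peak, where 34.9%, 21% and 28.3% of all autosomal genes did. Among autosomal genes over 100 kb the shares were 91.3%, 72.2% and 87.1%, and among those under 2 kb 2.18%, 0.960% and 1.66%. Of 28 long neuronal genes (median 560 kb), 25 held FA0 peaks (89.3%), 27 FA4 peaks and 27 brain peaks (96.4% each), with 327 FA0 and 137 FA4 peaks in all, so that their FA0 share was near that of long genes in general. Besides those above, Grin2b, a subunit of the NMDA receptor, had 15 FA0 and 3 FA4 peaks. Ptn, which encodes the growth factor pleiotrophin, had 0 FA0 and 2 FA4 peaks. Kcnd2, a potassium channel, had 4 FA0 and 6 FA4 peaks. In the summed brain lists this group had 116 peaks in NTD and 79 in CON, where the NTD lists together also hold more peaks.

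Clusters of receptor genes with a median length under 2 kb held few peaks, as did autosomal genes under 2 kb. The 51 type 1 vomeronasal receptor genes (median 0.930 kb) had FA0 peaks in 3 (5.88%) and FA4 peaks in 2 (3.92%). These small counts give shares above the 2.18% and 0.960% of autosomal genes under 2 kb. Vmn1r4, which spans 33.7 kb, had 4 FA0 peaks, and Vmn1r45 (8.86 kb) and Vmn1r27 (0.912 kb) had 1 each. Most of these FA0 peaks thus lay in genes over 2 kb. The 33 bitter taste receptor genes (median 0.936 kb) had peaks in 0 in every list, which allows a share of up to 9.09%. The Tas2r105 peak shown above lies before its gene. Among the longer killer cell lectin-like receptor genes (median 14.7 kb), 10 of 29 held FA0 peaks, 4 held FA4 peaks and 1 held a brain peak, and each of the 10 had 1 FA0 peak. The FA0 share of 34.5% was close to the 34.9% of all autosomal genes. C-type lectin genes, apart from these, had FA0 peaks in 8 of 25 (32%) and FA4 peaks in 6 (24%), also near the shares of all genes, with Clec12b at 2 and 1. Of the 14 Hoxa genes, which pattern the body axis, Hoxa3 had 1 FA0 peak (7.14% of the genes) and none had an FA4 or brain peak. That count of 0 allows a share of up to 21.4%. Their median length is 3.80 kb, and the share of all genes of such length was not computed. Immunoglobulin kappa segments had an FA0 peak in 1 of 108 (Igkv8-18, 0.926%) and FA4 peaks in 0, which allows up to 2.78%. T cell receptor beta variable segments had FA0 peaks in 0 of 22, which allows up to 13.6%, and an FA4 peak in 1 (4.55%). These families also hold near-identical copies, and the reads lost to that were not analysed here.

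Among other groups, 9 of 18 Zfp zinc finger genes held FA0 peaks (50%, beside 41.8% of chromosome 6 genes) and 3 FA4 peaks (16.7%, beside 24.4%), led by Zfp638 and by Zfp800 with 5 and 3. Of 6 genes of pluripotent and germ cells, 4 held FA0 peaks (66.7%) and 0 FA4 peaks, which allows a share of up to 50% and so does not set them apart from the 24.4% of chromosome 6 genes. Slc2a3, a glucose transporter, had 3, Nanog, a core transcription factor of embryonic stem cells, 2, Gdf3, a ligand of the TGF-beta family, 1, and the deaminase Apobec1 1. Of 10 genes of Wnt and Hedgehog signalling and neural tube closure, 7 held FA0 peaks, 3 FA4 peaks and 7 brain peaks (70%, 30% and 70%, beside 41.8%, 24.4% and 29.6% of chromosome 6 genes). Their median length of 60.3 kb is above the 18.0 kb of those genes. Besides Cecr2, Wnt5b, a Wnt ligand, had 4 FA0 and 0 FA4 peaks. NTD 1 to 3 had 1, 2 and 2 peaks in it and CON 1 to 3 had 0, 1 and 0, counts that met at 1. Over the 10 genes the summed NTD lists had 13 peaks and the CON lists 7. Within these sums Tcf7l1 had 0 and 2 and Smo 3 and 3, and the NTD lists together hold more peaks. Smo, described below, had 3 FA0 peaks and 1 FA4 peak, and Wnt7a 2 and 0. Of 6 genes of chromatin, DNA methylation and folate, Setd5 had 4 FA0 peaks and the histone methyltransferase Ezh2 1, Tet3, an oxidase of 5-methylcytosine, had 1 FA4 peak, and Mthfd2, a mitochondrial enzyme of folate metabolism, had 0 in both and 1 in CON 2. Of 7 signalling and cell cycle genes, 5 held FA0 peaks and 4 FA4 peaks (71.4% and 57.1%, at a median length of 58.1 kb). Braf and Met are given above, and Etv6, a transcription factor of the ETS family, had 6 and 1.

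FA0 and FA4 seldom marked the same place. On chromosome 6, 48 FA0 peaks overlapped an FA4 peak by at least 1 base, 1.49% of the FA0 peaks (Wilson interval 1.13 to 1.97), where 1.8% of the whole FA0 list did. In the other direction 48 FA4 peaks, 3.88% (2.94 to 5.11), overlapped an FA0 peak, where 3.44% of the whole FA4 list did. Both shares lie near the background of their list. Sharing was more frequent among peaks with a q of at most 0.05. Of 86 such FA0 peaks 10 overlapped an FA4 peak, and of 60 such FA4 peaks 5 overlapped an FA0 peak. The same counts for the whole lists are not reported here.

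The strongest FA0 peaks by fold were 2 of the shared ones. In an intron of Ppp1r9a, which encodes the actin-binding protein neurabin, an FA0 peak at chr6:4923830-4924195 had 34 tags, a deposited fold of 6.59 and a q of 3.24e-15. FA4 had 13 tags there with a fold of 2.08. In an intron of Thsd7a, a thrombospondin-repeat protein, the FA0 peak at chr6:12714759-12715301 had 21 tags and a fold of 6.47, and FA4 had 13 tags and 1.97. In an intron of Met the FA0 peak at chr6:17493099-17493350 had 19 tags and a fold of 4.36, and FA4 had 14 tags and 3.27. Shared peaks in introns of Dysf and Nxph1 followed, with 11 FA0 tags each. Both Ppp1r9a and Thsd7a had a larger fold in FA0 than in FA4, but they lead a ranking by FA0 fold, which favours that order. Ranked by FA4, the leading shared peak lay between genes near Pde6h at chr6:137002772-137003243, with 32 FA4 tags and a fold of 3.94, and 36 FA0 tags and a fold of 2.80. Next came Nxph1 with 10 FA4 tags, and peaks assigned to 1700027F06Rik, Atg7 and Ahcyl2 with 10, 14 and 9.

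Among peaks of FA0 alone, those in an intron of Snd1 (chr6:28610350-28611200) and near Edem1 (chr6:109063316-109063700) led with 15 tags and a fold of 5.13 each. Mtmr14 followed with 15 tags and 4.98, then Gprin3, BC048671 and Prb1, tied at 14 tags and 4.81. Among peaks of FA4 alone, 7 tied at 13 tags and a fold of 4.89. The authors assigned them to Pon1, Gm6578, B630005N14Rik, Prok2, Pparg, a nuclear receptor of fat cells, Cxcl12, a chemokine, and C1ra, a complement protease.

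The peaks with the most tags lay elsewhere and had a high background. The FA0 peak with the most tags on the chromosome, 69 at chr6:47760053-47760278, lay upstream of the gene of Rn4.5s, a small structural RNA, by the authors' assignment, and had a fold of 2.61 over a background of 25.9. FA4 had 58 tags there. RefSeq places Rn4.5s at chr6:47654921-47655094, away from this peak, and the brain peaks at the same place were assigned to Gm36673. In a stretch of 200 kb that holds this peak but is not centred on it, 15 FA0 and 12 FA4 peaks were called. The same stretch held 1, 5 and 4 peaks in NTD 1 to 3 and 6, 2 and 6 in CON 1 to 3. Reads of other copies of this sequence may be counted here, which was not tested.

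Peaks of different brain lists on chromosome 6 rarely met. Merged, they made 1753 regions, of which 1737 (99.1%) were held by 1 list, as were 98.4% on all autosomes. Only 5 were held by at least 3 lists, 0.434% of autosomal regions being held so. The one region in 6 of 6 lists lay at Smo (chr6:29747897-29748580), the gene of Smoothened, which passes the Hedgehog signal on into the cell and acts in neural tube patterning. It had 40, 44 and 59 tags in NTD 1 to 3 and 69, 58 and 59 in CON 1 to 3, with folds of 1.44, 1.42 and 2.45 and of 2.46, 2.97 and 2.06. FA0 had 54 tags there and FA4 33. The Smo site had a high background, 27.4, 30.6 and 23.5 in NTD 1 to 3 and 27.5, 18.9 and 28.1 in CON 1 to 3. The value shared by most peaks was 2.11, 2.13 and 2.19 in NTD 1 to 3 and 2.57, 2.13 and 2.69 in CON 1 to 3. The deposited q at Smo was at most 0.0208 in NTD 3 and CON 1 to 3, which the peaks of NTD 1 and NTD 2 did not reach. The groups met at 59 tags and overlapped in fold, the authors classed the peak as upstream, and the RefSeq gene spans it. The Ppp1r9a site was one of 4 regions in 3 lists, with 18 tags in NTD 2, 17 in CON 2 and 28 in CON 3. The other 3 lay in the Rn4.5s neighbourhood, at chr6:47653015-47653311 (NTD 1, NTD 2, CON 2), chr6:47759944-47760281 (NTD 2, CON 1, CON 3) and chr6:47777977-47778260 (NTD 2, NTD 3, CON 3). Each of the 5 was held by lists of both groups.

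Setting NTD beside CON asks whether the chromosome's 6mA peaks differed with the defect, which goes with methotrexate and the low-folate diet and cannot be told apart from them here. Chromosome 6 held 5.09%, 5.82% and 5.97% of the peaks of NTD 1 to 3 and 5.11%, 5.81% and 5.11% of those of CON 1 to 3. The groups overlapped, at 5.63% ± 0.468 (SD, n = 3) and 5.34% ± 0.401 (two-sided exact permutation p = 0.6, or 0.776 after Benjamini-Hochberg adjustment over 22 chromosomes). Of the 22 chromosomes, 27.3% did not overlap between the groups, and chromosome 6 was not among them. No test here could pass 0.05 with 3 lists against 3.

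Mean peak width did not overlap between the groups. It was 259, 264 and 264 bp in NTD 1 to 3 and 275, 285 and 284 bp in CON 1 to 3, or 262 ± 3.05 against 281 ± 5.44 bp (SD, n = 3, exact permutation p = 0.1, adjusted 0.5 over 5 peak values). On the other autosomes the width was 265, 270 and 265 bp in NTD and 284, 283 and 285 bp in CON, so the same order held there. The share classed upstream was 16.6%, 16.2% and 16.98% in NTD and 21.7%, 18.2% and 17.6% in CON, without overlap (exact permutation p = 0.1, adjusted 0.5 over 5 classes). On the other autosomes it was 17.4%, 17.99% and 17.6% in NTD and 18.2%, 17.9% and 18.3% in CON, where the groups overlapped. The intergenic, intronic, promoter and exonic shares overlapped (exact permutation p of 0.3 to 0.6), as did the median tags (p = 0.6) and the median fold (p = 0.6). By 5 Mb bin, 1 of 30 bins did not overlap between the groups, where 13.7% of all autosomal bins did not, and 6.97% had the NTD lists higher, as here. It lay from 130 to 135 Mb, where NTD 1 to 3 had 9, 12 and 12 peaks and CON 1 to 3 had 1, 8 and 1.

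**Figure D5:**
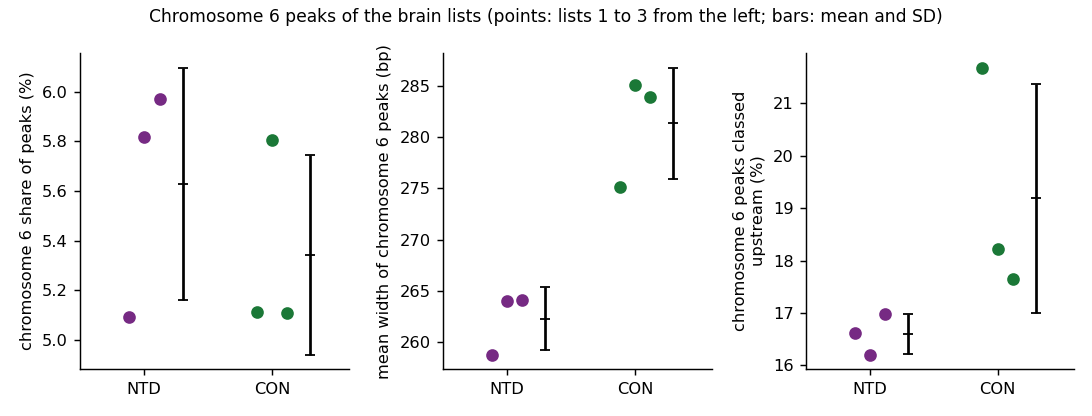
Chromosome 6 share of all peaks, mean width of its peaks and share of its peaks classed upstream in each brain list, with mean and SD of the 3 lists per group (axes do not start at 0). The shares of peaks overlap between NTD and CON, while width (262 against 281 bp) and upstream share do not, each at the smallest p the design allows, 0.1.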

How the data were processed

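Peak lists of 6mA immunoprecipitations were used, 6 from brain and 2 from cells. The submitters' processing notes name cutadapt 1.9.2, Bowtie2 2.2.4 and the build mm10. Which program called the peaks is not given in the sources. Each immunoprecipitation has its own list, per the file headers. Case was taken as NTD and Control as CON. Tag counts were deposited as whole numbers, not normalized as far as their values show. The deposited fold is a ratio made by the authors. The authors wrote p-values and q-values as −log10. Read totals were not analysed here, so depth is known at the peaks alone.

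Rows were reduced to 1 per peak, and a peak was placed by its midpoint in bins of 5 Mb, leaving out the leading 3 Mb of each chromosome. The background of a peak was recovered from fold and tags, as (tags + 1) / fold − 1. Gene bodies and promoter windows are RefSeq's on GRCm38.p6, and feature classes and assigned genes are the authors'. NTD and CON were compared by exact permutation over 20 assignments of 6 lists, with Benjamini-Hochberg adjustment. The cell lists were not tested against each other. Lists and members were chosen with earlier results of these data known. Named genes were the 10 with most FA0 peaks, the 10 with most per Mb among genes over 100 kb, the 5 leading peaks by fold in FA0 alone, FA4 alone and shared, brain regions in at least 3 lists, the longest genes of the 3 densest and 3 sparsest bins, and up to 4 members per gene list. Some genes that these rules take are not reported here. Other named genes, such as those with 0 FA0 peaks, were picked with their values in view. The alternatives tried were a fold minimum of 5, a q maximum of 0.05, keeping common-background peaks, lists of equal length, other bins, overlap of at least 50%, other reference chromosomes, each brain list left out, and same-numbered lists paired. The procedures were tested on simulated data. Python 3.11.15, numpy 2.4.6, pandas 2.3.3, scipy 1.17.1 and matplotlib 3.10.9 were used.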

Additional observations from a re-analysis of the deposited data

How the results depend on the processing

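The FA0 density of chromosome 6 over the median other autosome was 1.44. It became 1.67 at a fold of at least 5 (4 peaks), 1.71 at a q of at most 0.05 (86 peaks) and 1.29 with peaks at the common background, and stayed within its interval with FA0 cut to the length of FA4 by p (1.44) or by fold (1.47), against the mean of the other autosomes (1.40) and without chromosome 8 (1.44). The FA4 value of 1.10 became 1.20 at that q and 1.00 against the mean, and could not be had at a fold of at least 5, which no FA4 peak of the chromosome reached. The variance of FA0 bin counts fell from 9.01 times the mean to 5.72 in 2 Mb bins and to 5.43 without the 3 bins from 70 to 85 Mb, a choice made after seeing the data. The share of FA0 bins above the autosomal median ran from 73.3% (q of at most 0.05) to 93.3% (10 Mb bins). In brain, the NTD minus CON difference in the share of peaks on chromosome 6 was 0.286 percentage points and turned to -1.63 at a q of at most 0.05, where each list has 0 to 3 such peaks. The difference in median fold was -0.023 and turned to 0.052 at the common background. Leaving out each brain list gave 0.114 to 0.552 for the share of peaks, -22.2 to -17.2 bp for width, -3.35 to -1.34 points for upstream, 0.146 to 3.73 for intergenic, 0.457 to 3.24 for intron, -2.45 to -0.766 for promoter, -0.032 to 0.537 for exon (turned without NTD replicate 1), -1.33 to -0.333 for median tags and -0.045 to 0.0046 for median fold (turned without CON replicate 3). The cause of these changes was not tested. With same-numbered lists paired as a replicate block the difference in share was 0.286 (exact sign-flip p = 0.75, smallest possible 0.25). The numbers come from the lists' names alone. Over the bins, the deviations of same-numbered lists correlated at 0.040, 0.18 and 0.15. Those of differently numbered lists correlated at -0.12, 0.098, -0.013, -0.20, -0.027 and -0.10. Whether same-numbered lists belong together was not tested further. Class shares could not be had at a fold of at least 5, which no brain peak of the chromosome reached. Overlap of at least 50% left 5 brain regions in at least 3 lists. Depth limits each statement to peaks of about 8 tags.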
